A study of Homo sapiens with 30 samples.

Results

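The genes described here encode collagen chains, laminin chains and integrin subunits, the structural proteins of the extracellular matrix and the receptors that bind it. Members were every gene whose symbol follows the collagen (COL, a number, A, a number), laminin (LAMA, LAMB or LAMC and a number) or integrin (ITGA or ITGB and a suffix) pattern and whose summed transcript level reached 0.5 FPKM (fragments mapped to a transcript, scaled by its length and by the depth of the library) in at least 3 of 30 samples. Of 86 symbols that matched the pattern, 38 passed, out of 23616 symbols with both a count and an FPKM value. They were 16 of 44 collagen genes, 7 of 12 laminin genes, 12 of 26 integrin subunits and 3 of 4 other genes whose symbols begin with an integrin name but which encode no subunit. Just inside the limit, COL11A2, COL23A1, COL4A6, ITGA7 and ITGB7 each passed in exactly 3 samples, and just outside it COL5A1 reached 0.5 FPKM in 2 samples, with a highest value of 0.5485 FPKM. COL4A6 and COL23A1 passed only in V16D vehicle and ITGB7 only in stripped-serum vehicle, so that a lower level of these 3 elsewhere was favoured by the rule, and their changes are given as descriptions. LAMA1 passed in 5 samples and would not have passed without those given DHT alone. Its higher level with DHT than in the other stripped-serum conditions was therefore favoured by the rule too, and is given as a description.

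V16D is a castration-resistant prostate cancer line derived from LNCaP cells, and MR49F is an enzalutamide-resistant line of the same lineage. In full serum (10% fetal bovine serum), V16D and MR49F cells that had been without enzalutamide for 96 h were given 0.1% DMSO vehicle or 10 µM enzalutamide (MDV3100), an antiandrogen drug, for 24 h. In a separate experiment MR49F cells alone were kept in charcoal-stripped serum, from which most steroid hormone has been removed, for 72 h and then given vehicle, 10 µM enzalutamide, 1 nM dihydrotestosterone (DHT, an androgen), 500 nM JQ-1 (an inhibitor of BET bromodomain proteins), or JQ-1 combined with either enzalutamide or DHT, for 24 h. Each of the 10 conditions had 3 replicates of poly(A) RNA-seq. Each line is 1 cell line grown in culture with no stroma, so none of these values describes the matrix of a tumour. The study calls its replicates biological and the labels have cells plated in triplicate, but neither says that the replicates came from separately grown cultures, so p-values measure only the spread between these samples, which may be technical.

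Collagens assemble from alpha chains into a triple helix, and basement membranes are built on networks of type IV collagen and of laminin, which is a trimer of an alpha, a beta and a gamma chain. Integrins are heterodimers of an alpha and a beta subunit that span the plasma membrane, bind matrix proteins outside the cell and connect to actin inside it. In the prostate the epithelium rests on a laminin-rich basement membrane, and the integrins that contain ITGA6 are its classical laminin receptors.

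The sequences shown are upstream of 6 members described below and were chosen by hand as examples, without LAMA3 or COL12A1. They include those of the type IV collagen genes COL4A5 and COL4A6, which share one upstream region. Each is the 250 bases before the RefSeq transcription start, 5′ to 3′ on the strand of the gene, in build GRCh38.p14. Capitals mark the GC box GGGCGG or its reverse complement CCGCCC, the core motif of the Sp family of factors.
LAMC1, chr1:183023170-183023419, plus strand: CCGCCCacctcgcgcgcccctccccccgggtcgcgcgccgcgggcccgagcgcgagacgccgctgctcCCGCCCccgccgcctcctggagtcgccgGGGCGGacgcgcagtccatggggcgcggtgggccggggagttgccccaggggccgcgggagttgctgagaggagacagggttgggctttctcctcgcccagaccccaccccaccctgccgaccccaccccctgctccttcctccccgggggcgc
ITGAV, chr2:186589806-186590055, plus strand: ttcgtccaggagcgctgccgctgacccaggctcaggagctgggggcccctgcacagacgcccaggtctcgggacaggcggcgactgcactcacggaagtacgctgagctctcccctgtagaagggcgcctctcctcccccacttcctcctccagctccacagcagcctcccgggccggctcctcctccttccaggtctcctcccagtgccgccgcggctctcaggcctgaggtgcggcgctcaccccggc
LAMB1, chr7:108003162-108003411, minus strand: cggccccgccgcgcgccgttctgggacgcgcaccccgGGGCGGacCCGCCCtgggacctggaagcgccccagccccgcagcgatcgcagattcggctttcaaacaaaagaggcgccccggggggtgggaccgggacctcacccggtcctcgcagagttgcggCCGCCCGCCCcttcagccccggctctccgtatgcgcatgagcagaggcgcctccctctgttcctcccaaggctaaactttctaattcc
COL9A2, chr1:40317287-40317536, minus strand: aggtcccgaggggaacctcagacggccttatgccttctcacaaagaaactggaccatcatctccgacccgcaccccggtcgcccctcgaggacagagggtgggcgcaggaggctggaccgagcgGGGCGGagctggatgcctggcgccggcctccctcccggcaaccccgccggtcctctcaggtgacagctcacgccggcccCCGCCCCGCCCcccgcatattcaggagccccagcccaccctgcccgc
COL4A5, chrX:108439588-108439837, plus strand: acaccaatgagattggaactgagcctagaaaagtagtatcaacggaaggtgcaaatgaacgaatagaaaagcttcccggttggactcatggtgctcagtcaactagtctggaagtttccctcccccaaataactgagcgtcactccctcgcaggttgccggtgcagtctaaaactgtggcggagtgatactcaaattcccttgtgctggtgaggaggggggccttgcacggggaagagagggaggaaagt
COL4A6, chrX:108439459-108439708, minus strand: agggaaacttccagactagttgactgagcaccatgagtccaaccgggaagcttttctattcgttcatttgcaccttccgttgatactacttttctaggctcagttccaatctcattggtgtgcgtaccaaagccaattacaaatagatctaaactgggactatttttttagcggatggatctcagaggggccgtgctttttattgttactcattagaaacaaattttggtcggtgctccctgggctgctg
The windows of LAMB1, LAMC1 and COL9A2 held 4, 3 and 3 GC boxes, overlapping copies counted, and those of ITGAV, COL4A5 and COL4A6 held none. ITGAV and COL4A6 each have 2 windows, of which 1 is printed. Over all RefSeq promoter windows of this length 42.6% of 35116 held a GC box, against 24 of the 39 windows (61.5%) that belong to the 28 members in the table. The androgen receptor half-site AGAACA, on either strand, was searched as well. It was in 1 of the 39 member windows (2.56%) against 12.4% of all windows, and in none of those printed. COL4A6 and COL4A5 lie head to head on chromosome X with starts 380 bases apart, so the printed windows overlap in part and are read from opposite strands. No window was held for ITGB4, ITGB2, COL6A1, LAMA1, LAMC3, COL9A3, COL1A1, ITGA3, COL5A2 or ITGA7.

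In full serum the authors' counts held 13170504 to 21154962 reads on genes per sample, 72.97% to 77.81% of those counted. In stripped serum they held 982130 to 1813262, only 5.13% to 7.664%, with 14813917 to 24126651 further reads on no annotated feature. The part of this gap in the results was not tested. For this reason the stripped-serum comparisons below give the fit on FPKM first and the fit on counts beside it, and no test was made between the serum conditions. Replicate 1 of MR49F in full-serum vehicle stood apart from the other two: chi-square per degree of freedom between replicate counts was 9.865 and 11.57 for its pairs against 2.245 for the remaining pair, so comparisons that use it are given with and without it. All 10 luminal prostate markers were above 0.5 FPKM in every group, while at most 1 of 6 basal, 3 of 10 fibroblast, 1 of 6 endothelial and 2 of 7 leukocyte markers were. COL11A2 had 0 reads in every count file although it was listed at up to 0.6498 FPKM; 24 of its 28 listed transcripts lie at more than 1 locus, and it is not interpreted further.

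Among integrins, ITGB1, the beta subunit shared by most matrix-binding integrins, had the highest level of all members in every condition, from a mean of 104.2 FPKM in stripped serum with enzalutamide to 189.0 FPKM with DHT and JQ-1. Its possible alpha partners were far lower. ITGAV, the alpha subunit of vitronectin receptors, lay between 12.87 and 38.9 FPKM over all samples. ITGA6, a laminin-receptor subunit, lay between 5.326 and 13.03 FPKM, and ITGB5, a partner of ITGAV, between 5.76 and 15.01 FPKM. ITGA3 (laminin receptor; 0.7273 to 6.292 FPKM), ITGA5 (fibronectin receptor; 1.21 to 4.5 FPKM), ITGA2 (collagen receptor; 0.9129 to 2.93 FPKM) and ITGAE, which pairs with ITGB7 (1.102 to 3.271 FPKM), were lower and passed in all 30 samples. ITGB4, the beta subunit of hemidesmosomes, spanned 0.295 to 2.95 FPKM. The leukocyte subunits ITGB2 and ITGB7 reached at most 1.507 and 0.6042 FPKM, and the muscle laminin receptor ITGA7 at most 0.5576 FPKM.

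Of the laminin chains, LAMC1, the gamma chain of most laminins, had group means of 32.42 to 110.7 FPKM and ranked below ITGB1 in every condition; COL6A2 exceeded it in stripped serum with vehicle and with JQ-1. The beta chain LAMB2 (11.41 to 30.84 FPKM) exceeded LAMB1 (0.3254 to 2.535 FPKM) in every sample. The alpha chain LAMA5 varied least among laminins, from 7.194 to 13.22 FPKM, whereas LAMA3, the alpha chain of epithelial anchoring laminin, ranged from 0.05733 to 14.9 FPKM. LAMA1 reached at most 0.7195 FPKM and LAMC3 at most 0.7907 FPKM. LAMB3, the beta chain with which LAMA3 forms anchoring laminin, was not a member and reached at most 0.15 FPKM in any sample.

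The collagens were led by the beaded-filament chains COL6A2 (5.683 to 49.89 FPKM) and COL6A1 (4.034 to 26.31 FPKM) and by the basement membrane chain COL4A5 (6.165 to 15.15 FPKM). COL12A1, a fibril-associated collagen, ranged from 0.08 to 9.246 FPKM. The basement membrane collagen COL18A1 (1.639 to 6.001 FPKM), the anchoring-fibril collagen COL7A1 (0.7346 to 2.093 FPKM), COL26A1 (0.434 to 3.167 FPKM) and the fibrillar COL1A1 (0.6161 to 1.766 FPKM) followed. The type IX chains COL9A2 and COL9A3 reached 1.74 and 2.309 FPKM. COL5A2, COL16A1, COL23A1, COL27A1 and COL4A6 stayed below 1 FPKM in every sample, with highest values of 0.9021, 0.7931, 0.784, 0.9487 and 0.6779 FPKM. The usual partner chains of several members were below the limit throughout: COL6A3 reached 0.01519 FPKM, COL1A2 0.007518 FPKM, COL4A1 0.06133 FPKM and COL4A2 0.3477 FPKM, and COL9A1 was listed at 0. The 3 other members were ITGB1BP1, which binds the cytoplasmic tail of the ITGB1 subunit (11 to 23.68 FPKM), its muscle relative ITGB1BP2 (0.0782 to 1.047 FPKM) and ITGB3BP, a centromere protein despite its name (4.393 to 18.3 FPKM).

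**Figure D1:**
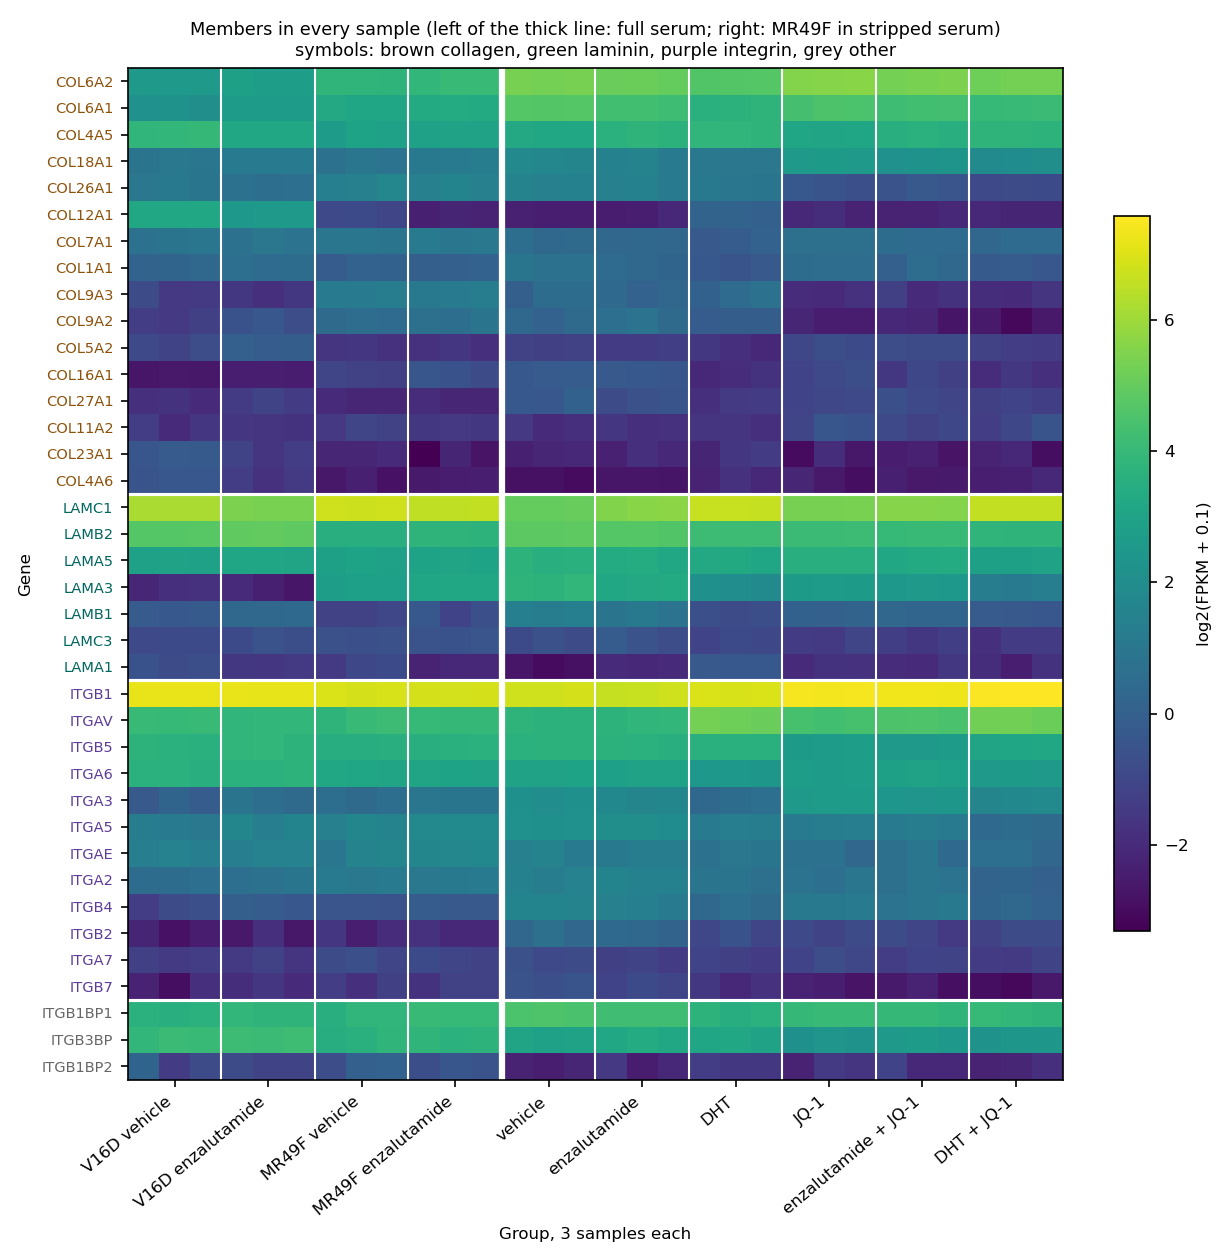
Heat map of log2(FPKM + 0.1) of the 38 members (rows, grouped as collagens, laminins, integrins and others) in each of the 30 samples (columns, 3 per condition; full serum left of the thick line, MR49F in stripped serum right). ITGB1 and LAMC1 are bright throughout, and COL12A1 and LAMA3 change places between V16D and MR49F.

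**Figure D2:**
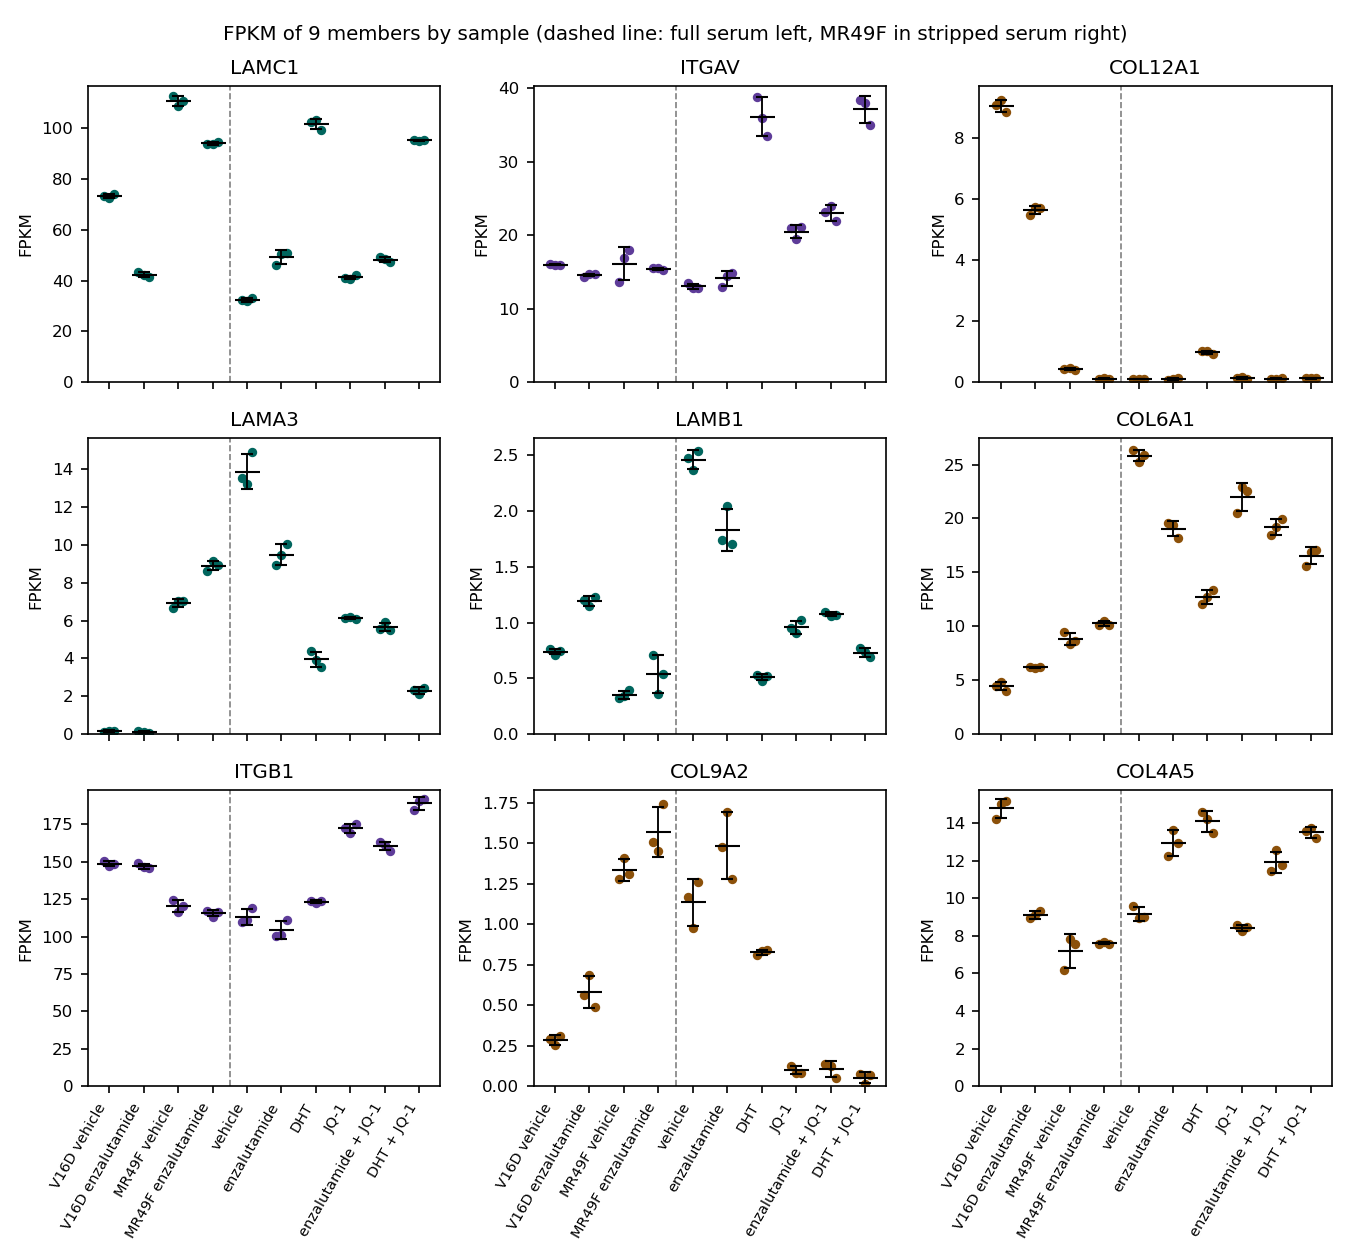
FPKM of 9 members by condition; points are the 3 samples, the long bar the mean and the short bars 1 SD, each axis starting at 0. LAMC1 and ITGAV are high in both DHT conditions, LAMA3 and LAMB1 are highest in stripped-serum vehicle, and COL9A2 is near 0 in the 3 JQ-1 conditions.

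The first comparison asked how the resistant line differed from the parental line without drug in full serum. COL12A1 stood at 9.099, 9.246 and 8.866 FPKM in V16D and at 0.4335, 0.4494 and 0.385 FPKM in MR49F. LAMA3 had the opposite pattern, at 0.1246, 0.1764 and 0.1918 FPKM in V16D and 6.664, 7.061 and 7.016 FPKM in MR49F. Neither gene's groups overlapped. By edgeR's quasi-likelihood test on counts, with Benjamini-Hochberg adjustment over all genes (used for every count p below), the log2 fold change of LAMA3 was 5.87 (SE 0.096, adjusted p = 1.07e-12), a 58.5-fold difference, and that of COL12A1 was -4.44 (SE 0.067, adjusted p = 5.4e-13). In all, 26 of the 36 members tested differed, 14 higher and 12 lower in MR49F, against 63.7% of all 14013 genes tested, so the share of members that differed was near that of genes in general. The FPKM fit called 20 of 30 (10 higher, 10 lower), against 60.4% of genes, and all 20 were also called by counts. LAMA3 is at chromosome 18, 21269417 to 21536186, and COL12A1 at chromosome 6, 75794042 to 75915983 (GRCh37).

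Among basement membrane chains, LAMC1 was higher in MR49F (73.27, 72.6 and 73.96 FPKM in V16D against 112.5, 108.8 and 110.8 FPKM; log2 fold change 0.60, SE 0.045, adjusted p = 3.77e-07). LAMB2 was lower, at 26.1, 26.24 and 26.65 FPKM against 11.41, 11.7 and 11.61 FPKM, with a log2 fold change of -1.18. LAMB1 (-1.03) and LAMA1 (-0.46) were lower too, so the 3 called laminin chains with lower counts stood beside 2 with higher counts. COL4A5 was at 14.21, 14.99 and 15.15 FPKM in V16D and 6.165, 7.815 and 7.563 FPKM in MR49F (log2 fold change -1.06, SE 0.068, adjusted p = 1.09e-07), and its head-to-head neighbour COL4A6, which entered only through V16D vehicle, had a log2 fold change of -3.25.

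The type VI and type IX collagens were higher in MR49F. COL6A1 rose from 4.507, 4.821 and 4.034 FPKM to 9.436, 8.373 and 8.617 FPKM, and the log2 fold changes were 0.99 for COL6A1, 1.28 for COL6A2, 2.26 for COL9A2 and 2.52 for COL9A3 (largest adjusted p of the 4, 9.56e-07). The membrane-spanning collagen COL23A1, which entered only through V16D vehicle, had a log2 fold change of -2.33. Of the integrins, ITGA3 (0.69) and ITGA2 (0.59) were higher, ITGA6 (-0.52) and ITGB1 (-0.30, adjusted p = 0.000256) were lower, and ITGAV did not pass (0.02, 95% interval -0.12 to 0.16, adjusted p = 0.805). Without replicate 1 of MR49F vehicle 28 members passed instead of 26, of which 25 were shared: ITGAE, ITGAV and ITGB1BP1 were gained and LAMA1 was lost.

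Enzalutamide in V16D cells tested the drug in the sensitive line. LAMC1 fell from 73.27, 72.6 and 73.96 FPKM to 43.33, 42.24 and 41.48 FPKM (log2 fold change -0.82, SE 0.023, adjusted p = 2.61e-164). COL4A5 fell to 8.922, 9.098 and 9.317 FPKM (-0.73, SE 0.034, adjusted p = 3.18e-79) and COL12A1 to 5.495, 5.745 and 5.722 FPKM (-0.72, SE 0.034, adjusted p = 2.17e-77). The log2 fold changes of LAMA1 (-1.13), COL4A6 (-1.39) and COL23A1 (-1.27) were larger but came from genes below 1 FPKM, of which COL4A6 and COL23A1 entered only through V16D vehicle, and smaller falls were measured for COL26A1 (-0.38) and ITGAV (-0.16, adjusted p = 2.39e-06). Of 36 members tested 22 were called, 14 higher and 8 lower, where 37.5% of all genes tested were called (18.2% higher, 19.3% lower).

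The members that rose included 6 collagens, 3 laminin chains and 4 integrin subunits. LAMB1 rose from 0.7652, 0.7136 and 0.7436 FPKM to 1.2, 1.146 and 1.233 FPKM, a log2 fold change of 0.63 (SE 0.11, adjusted p = 5.84e-08), in the same cells in which the gamma chain LAMC1 fell. ITGB4 (0.86), ITGA3 (0.79) and the fibronectin receptor subunit ITGA5 (0.41) rose. COL9A2 (1.01), COL5A2 (0.94), COL6A1 (0.45) and COL1A1 (0.33) rose too. ITGB1, at 150.4, 147.3 and 148.4 FPKM with vehicle and 149, 146.3 and 145.8 FPKM with enzalutamide, and ITGA6 did not pass (log2 fold changes -0.05, 95% interval -0.093 to -0.0040, and 0.01, -0.058 to 0.081).

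In MR49F cells in full serum, enzalutamide was followed by fewer calls: 7 of 36 members (4 higher, 3 lower), against 8.48% of all genes tested (3.86% higher, 4.62% lower). The FPKM fit called 3 of 26 (2 higher, 1 lower), against 4.1% of genes (2.24% higher, 1.86% lower). LAMC1 fell from 112.5, 108.8 and 110.8 FPKM to 93.6, 93.58 and 94.68 FPKM, a log2 fold change of -0.28 (SE 0.044, adjusted p = 0.00288). LAMA3 rose to 8.642, 9.16 and 8.924 FPKM (0.32, SE 0.047, adjusted p = 0.00199), and COL16A1 (0.71), ITGA3 (0.37) and LAMB2 (0.18) rose with adjusted p of 0.0257, 0.0289 and 0.0285. The other falls, in COL12A1 (to 0.09653, 0.1209 and 0.1047 FPKM; log2 fold change -1.96) and LAMA1 (-1.62), lay below 0.5 FPKM on both sides and are named after their values were seen. Without vehicle replicate 1, 12 members were called, among them all 7: COL18A1, COL6A1, COL6A2, ITGA5 and ITGAV were added, ITGAV with a log2 fold change of -0.19. Leaving out enzalutamide replicate 1 or replicate 2 left 4 calls and lost COL16A1, ITGA3 and LAMB2.

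The difference between the lines in their enzalutamide response was tested directly as an interaction over 12 samples, where 5 of 37 members passed against 6.95% of genes. LAMC1 fell in both lines and by less in MR49F (interaction 0.54, SE 0.049, adjusted p = 2.06e-07). COL4A5 fell in V16D and did not pass in MR49F (log2 fold change 0.04), with an interaction of 0.76 (SE 0.076, adjusted p = 5.85e-07). COL4A6, which entered only through V16D vehicle and was at means of 0.0671 and 0.07968 FPKM in MR49F, had an estimate of 1.57. COL12A1 had a larger fall in MR49F by counts (-1.25, SE 0.14, adjusted p = 2.92e-06), but the estimate turned to 0.24 on log2(FPKM + 1), its MR49F levels being below 0.5 FPKM on both sides, and COL5A2, which rose in V16D, had a negative estimate (-1.11, adjusted p = 0.00365). COL4A5 in MR49F was at 7.557, 7.653 and 7.59 FPKM with enzalutamide, inside the range of its vehicle samples. Without MR49F vehicle replicate 1, 7 members passed, the same 5 with ITGB4 and LAMA3.

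**Figure D3:**
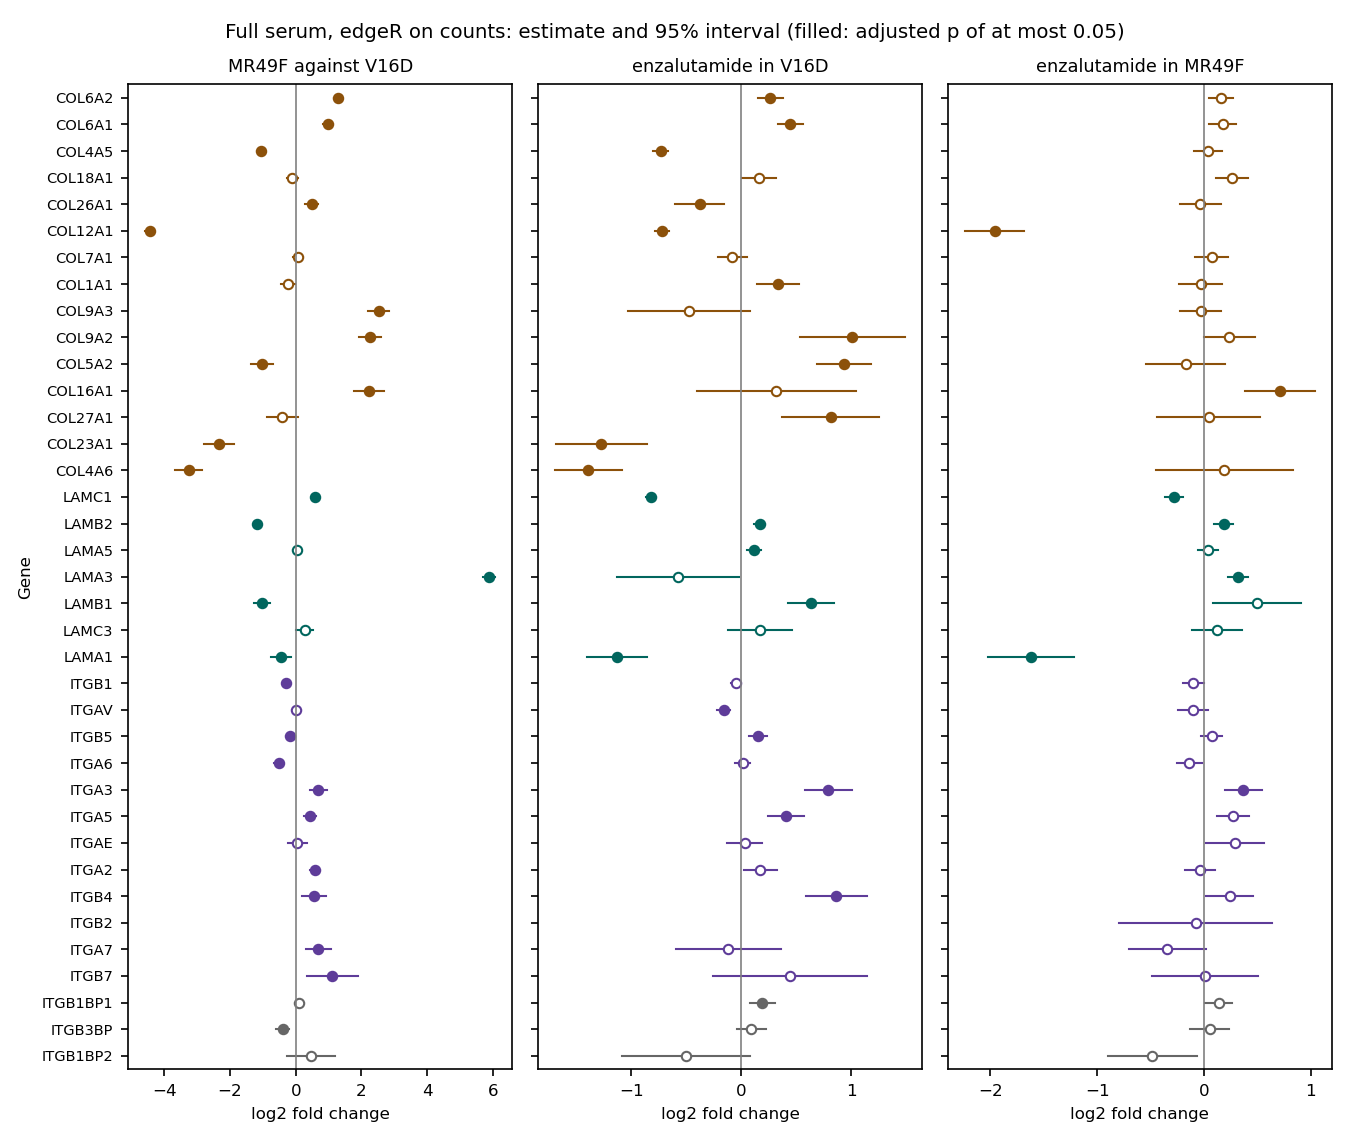
Log2 fold change of each tested member (rows) with its 95% interval from edgeR on counts, in 3 panels: MR49F against V16D with vehicle, enzalutamide in V16D, and enzalutamide in MR49F; filled points have an adjusted p of at most 0.05. LAMA3 at 5.87 and COL12A1 at -4.44 are the extremes of the line comparison, and most points of the MR49F enzalutamide panel are open.

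In stripped serum the FPKM fit used limma on log2(FPKM + 0.1), a scale that understates changes of genes near 0.1 FPKM, again with Benjamini-Hochberg adjustment over all genes. DHT was compared with vehicle to describe the response to androgen. LAMC1 rose from 32.35, 31.77 and 33.15 FPKM to 102.5, 103.2 and 99.27 FPKM, a difference of 1.65 on the log2 scale (SE 0.036, adjusted p = 7.32e-09) by FPKM and 1.70 by counts. ITGAV rose from 13.47, 12.88 and 12.87 FPKM to 38.9, 35.92 and 33.57 FPKM (1.46, SE 0.057, adjusted p = 1.59e-07, counts 1.31). These were the abundant members with the clearest rise, and for both the DHT samples lay far outside the vehicle range. Members called by the FPKM fit numbered 28 of 31, with 6 higher and 22 lower, where 71% of all genes were called (27.5% higher, 43.5% lower) and the median of all genes was -0.11. The count fit called 19 of 27 (6 higher, 13 lower) against 37.5% of genes, all 19 among those called by FPKM and with the same sign.

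The remaining rises were in basement membrane and fibril-associated chains. COL4A5 went from 9.579, 8.928 and 8.99 FPKM to 14.59, 14.19 and 13.47 FPKM (0.61 by FPKM, adjusted p = 1.15e-05; 0.83 by counts). COL12A1 went from 0.1022, 0.09046 and 0.09034 FPKM to 1.011, 1.012 and 0.9227 FPKM, on 1, 1 and 3 reads with vehicle and 12, 20 and 13 with DHT (2.48, adjusted p = 2.85e-06, counts 3.19). LAMA1 went from 0.05667, 0.02367 and 0.03979 FPKM to 0.7195, 0.7112 and 0.7022 FPKM, on 0, 0 and 1 reads against 16, 13 and 19 (2.54, adjusted p = 8.4e-06). COL12A1 and LAMA1 reached the 0.5 FPKM needed for the FPKM fit only in the DHT samples, so a rise was favoured for both. ITGB1 rose slightly, from 109.7, 110.8 and 119.1 FPKM to 124, 122.4 and 123.7 FPKM (0.12, adjusted p = 0.0261, counts 0.22).

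The 22 lower members covered each family. LAMB1 fell from 2.477, 2.373 and 2.535 FPKM to 0.5302, 0.4813 and 0.5194 FPKM, a difference of -2.07 (SE 0.097, adjusted p = 4.51e-07, counts -1.27). LAMA3 fell from 13.53, 13.2 and 14.9 FPKM to 4.37, 3.937 and 3.553 FPKM (-1.79, SE 0.082, adjusted p = 4.14e-07, counts -1.68), and ITGA3 from 4.352, 3.984 and 4.389 FPKM to 1.151, 1.337 and 1.489 FPKM (-1.61, SE 0.10, adjusted p = 2.43e-06, counts -1.60). The alpha and beta chains LAMA3 and LAMB1 fell in the same samples in which the gamma chain LAMC1 rose. COL6A1, at 26.31, 25.27 and 25.87 FPKM with vehicle and 12.11, 12.75 and 13.38 FPKM with DHT, changed by -1.01 (counts -0.84). COL16A1 (-1.72, counts -1.32), COL27A1 (-1.38), COL1A1 (-1.17, counts -1.44) and ITGB2 (-1.30) also fell. COL16A1 and COL27A1 reached the 0.5 FPKM needed for this fit only with vehicle, so a fall was favoured for both. ITGB7, which entered only through the vehicle samples, differed by -1.23, and ITGA6 fell by a smaller amount (-0.49, counts -0.57). In the same comparison the summed level of the 10 fibroblast markers moved from between 2.624 and 3.388 FPKM to between 0.8492 and 1.141 FPKM, and that of the 10 luminal markers from between 1478 and 1541 FPKM to between 3240 and 3456 FPKM. Their part in these results was not tested.

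LAMA3 had 4 listed transcripts, of which a longer and a shorter one made up its level in MR49F. Shares are of the sum of these 2. In stripped-serum vehicle the longer was at 7.449 FPKM and the shorter at 6.431 FPKM, so the longer held 53.7%, and with DHT they were at 2.378 and 1.575 FPKM, 60.2% for the longer. With DHT and JQ-1 the longer held 71.6%, at 1.642 against 0.6523 FPKM. Both transcripts were lower with DHT, and the shares are estimates by the authors' software from short reads that were not tested here.

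Enzalutamide in stripped serum changed fewer members. LAMC1 rose to 46.22, 50.62 and 50.9 FPKM (0.60, SE 0.049, adjusted p = 3.91e-05, counts 0.51, adjusted p = 0.000879), and COL4A5 to 12.24, 13.62 and 12.94 FPKM (0.49, adjusted p = 0.000253, counts 0.61, adjusted p = 0.00849). LAMA3 fell to 8.937, 9.472 and 10.06 FPKM (-0.54, adjusted p = 0.000307, counts -0.62, adjusted p = 0.0017). In full serum the same drug had been followed in the same line by a lower LAMC1 and a higher LAMA3, and whether the serum changed the response was not tested because the serum experiments were not fitted together. The FPKM fit called 14 of 30 members, 3 higher and 11 lower, against 36.7% of genes. The count fit called 4 of 27, against 7.26% of genes (4.38% higher, 2.87% lower): LAMC1, COL4A5, LAMA3 and COL6A2.

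COL6A2 was lower by FPKM as well (-0.25). The other members lower by FPKM were COL1A1 (-0.46), COL6A1 (-0.44), ITGA3 (-0.42), LAMB1 (-0.41), COL18A1 (-0.31), ITGB4 (-0.28), LAMA5 (-0.27), ITGB1BP1 (-0.26) and LAMB2 (-0.16), none of which passed by counts, and COL18A1 had the opposite sign there (0.25, adjusted p = 0.307). ITGB3BP was higher by FPKM (0.28) and not by counts (0.04). ITGAV, at 13, 14.47 and 14.87 FPKM, overlapped with vehicle and did not pass (0.11, adjusted p = 0.185), nor did ITGB1 (-0.12, adjusted p = 0.12) or ITGA6 (-0.03, adjusted p = 0.649). Without enzalutamide replicate 2 the count fit called 2 members in place of 4, losing COL4A5 and COL6A2.

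DHT and enzalutamide were also compared with each other, at 1 nM and 10 µM. Levels with DHT exceeded those with enzalutamide for COL12A1 (2.45 by FPKM, adjusted p = 9.27e-06, counts 2.72), LAMA1 (1.73), ITGAV (1.35, SE 0.069, adjusted p = 9.74e-07, counts 1.30), LAMC1 (1.05, SE 0.048, adjusted p = 4.83e-07, counts 1.18) and ITGB1 (0.24, adjusted p = 0.00243, counts 0.23, adjusted p = 0.0621). COL4A5 did not differ past the threshold (0.12, adjusted p = 0.0898, counts 0.21). LAMB1 (-1.66, counts -0.98), COL16A1 (-1.62), LAMA3 (-1.25, counts -1.06), ITGA3 (-1.19, counts -1.11), ITGB2 (-1.17), ITGB4 (-0.83, counts -1.04), COL9A2 (-0.76) and ITGA5 (-0.73) were lower with DHT. By FPKM 24 of 29 members differed (5 higher, 19 lower) against 56.7% of genes (19.8% higher, 36.9% lower), and by counts 12 of 28 (4 higher, 8 lower) against 19.4% (10.3% higher, 9.13% lower). COL12A1 had 1, 3 and 3 reads with enzalutamide, and LAMA1 had 1, 2 and 0. In this fit COL12A1 and LAMA1 reached 0.5 FPKM only with DHT and COL16A1 only with enzalutamide, so these directions were favoured.

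**Figure D4:**
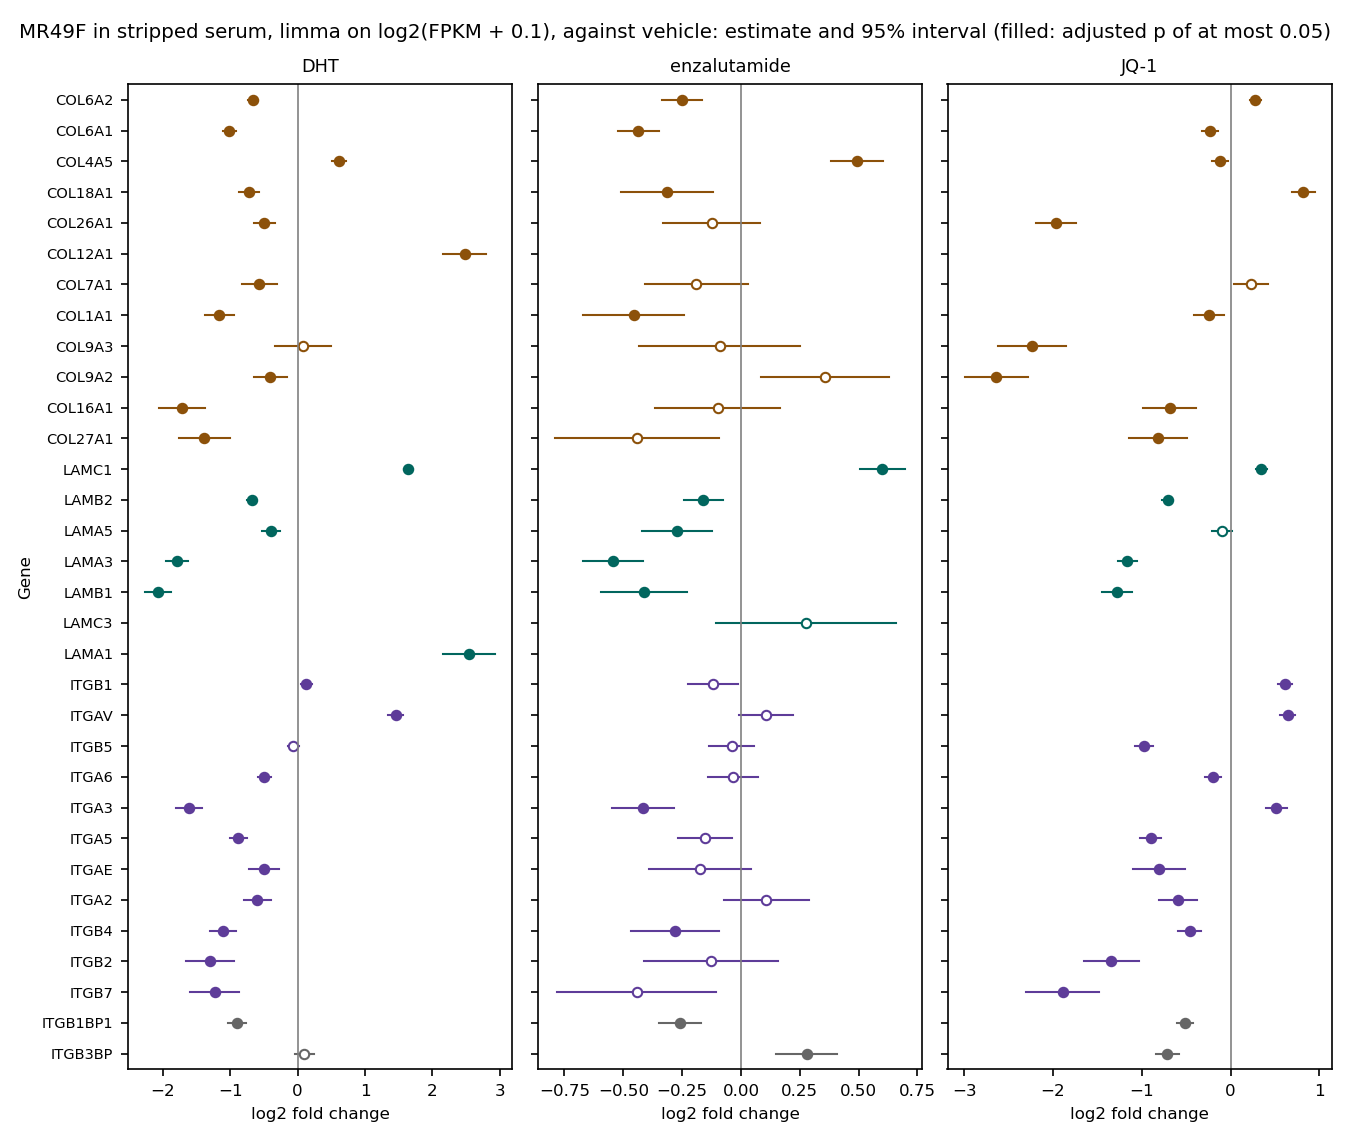
Difference in log2(FPKM + 0.1) from vehicle of each member tested (rows), with the 95% interval from limma, for DHT, enzalutamide and JQ-1 in MR49F cells in stripped serum; filled points have an adjusted p of at most 0.05, and the 3 panels share the vehicle samples and have different axes. LAMC1 lies right of 0 in all 3 panels, at 1.65, 0.60 and 0.34, and LAMA3 and LAMB1 lie left of 0 in all 3.

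JQ-1 alone was compared with vehicle to describe the effect of BET inhibition without DHT or enzalutamide. The largest falls were in the type IX collagen chains and COL26A1. COL9A2 went from 1.169, 0.9736 and 1.26 FPKM (13, 11 and 10 reads) to 0.1269, 0.08472 and 0.08267 FPKM (1, 1 and 1 reads), a difference of -2.64 on the log2(FPKM + 0.1) scale (adjusted p = 3.82e-06), and COL9A3 from 0.8753, 1.358 and 1.342 FPKM to 0.1625, 0.1562 and 0.1905 FPKM (-2.24, adjusted p = 1.54e-05, counts -1.18). COL26A1 fell from 2.876, 2.563 and 2.633 FPKM to 0.7007, 0.6196 and 0.5271 FPKM (-1.97, adjusted p = 1.78e-06, counts -1.94). These 3 collagens were below vehicle in every JQ-1 sample. COL9A2, COL9A3 and ITGB2 reached the 0.5 FPKM needed for this fit only in vehicle samples, so a fall was favoured for each. Their changes are given as descriptions. ITGB7, which entered only through the vehicle samples, differed by -1.89. ITGB2 (-1.34), LAMB1 (-1.27, counts -0.43), LAMA3 (-1.16, counts -1.21) and ITGB5 (-0.98, counts -1.03) fell too.

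Of 11 integrin subunits tested with JQ-1, 3 rose and 8 fell by FPKM, and the 3 that rose were ITGB1, ITGAV and ITGA3. By counts 9 were tested, of which 3 were higher, 2 were lower and 4 did not pass. ITGB1 rose from 109.7, 110.8 and 119.1 FPKM to 172.5, 169.5 and 175.6 FPKM (0.61, SE 0.040, adjusted p = 2.97e-06, counts 0.77, adjusted p = 6.93e-13). ITGAV rose to 20.93, 19.5 and 21.06 FPKM (0.64, adjusted p = 3.68e-06, counts 0.72) and ITGA3 to 5.834, 6.292 and 6.176 FPKM (0.51, adjusted p = 8.7e-05, counts 0.52). LAMC1 rose to 40.92, 40.69 and 42 FPKM (0.34, counts 0.42) and COL6A2 by 0.28 (counts 0.25), while ITGA6 changed by -0.20 in FPKM and did not pass by counts (-0.08). COL18A1 was higher by FPKM (0.82) with no call by counts (-0.09, adjusted p = 0.577), and 18.47% of its exon bases lie opposite exons of SLC19A1 on the other strand. This share was larger for ITGB7 (42.26%, opposite ZNF740) and ITGB1BP1 (33.17%, opposite ASAP2). The part of such overlaps in the count estimates was not tested. In all 27 of 29 members were called by FPKM (6 higher, 21 lower) against 73.9% of genes (31.3% higher, 42.6% lower), and 15 of 26 by counts (5 higher, 10 lower) against 46.6% (22.8% higher, 23.9% lower). The summed level of the basal markers went from between 0.8623 and 1.061 FPKM to between 3.281 and 4.241 FPKM, with 1 of 6 above 0.5 FPKM in both groups. That marker was NGFR, at means of 0.861 FPKM with vehicle and 3.667 FPKM with JQ-1. The means of the others were at most 0.07286 FPKM in both groups, so the rise was that of NGFR. The luminal markers went from between 1478 and 1541 FPKM to between 1015 and 1030 FPKM. Their part in these changes was not tested.

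JQ-1 added to enzalutamide was compared with enzalutamide alone. ITGB1 rose from 100.1, 101.3 and 111.2 FPKM to 163, 161.1 and 157.4 FPKM (0.62, counts 0.68), ITGAV to 23.21, 24.05 and 21.9 FPKM (0.71, counts 0.92) and ITGA3 to 5.266, 5.075 and 5.334 FPKM (0.71, counts 0.92). COL6A2 rose as well (0.31, counts 0.39). COL9A2 fell to 0.139, 0.1271 and 0.05312 FPKM (-2.96; 2, 1 and 2 reads), COL9A3 by 1.92 on the log2 scale (counts -0.80, adjusted p = 0.0698) and COL26A1 by 1.79 (counts -2.20). ITGB2 (-1.40), ITGB5 (-1.03), COL16A1 (-0.94), ITGA5 (-0.84) and LAMA3 (-0.73, counts -0.76) were lower too. In this fit COL9A2, COL9A3, ITGB2 and COL16A1 reached 0.5 FPKM only with enzalutamide alone, so a fall was favoured for each. LAMC1, at 49.07, 48.35 and 47.11 FPKM, did not differ past the threshold from enzalutamide alone (-0.03, adjusted p = 0.568, counts 0.18, adjusted p = 0.0638). By FPKM 20 of 28 members were called (5 higher, 15 lower) against 74.3% of genes (30.4% higher, 43.9% lower), and by counts 10 of 24 (4 higher, 6 lower) against 45.1% (22% higher, 23.2% lower), with COL18A1 called in opposite directions (0.83 and -0.47).

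JQ-1 added to DHT was compared with DHT alone, and the members raised by DHT differed in size of change. COL12A1 fell from 1.011, 1.012 and 0.9227 FPKM to 0.1306, 0.1184 and 0.1192 FPKM (-2.28, adjusted p = 2.7e-06, counts -2.63, from 12, 20 and 13 reads to 3, 3 and 2). LAMA1 fell to 0.1696, 0.08971 and 0.1986 FPKM (-1.71, adjusted p = 0.000108; 4, 3 and 4 reads). COL12A1 and LAMA1 reached the 0.5 FPKM needed for this fit only with DHT alone, so a fall was favoured for both. LAMC1, at 95.21, 95.07 and 95.14 FPKM, lay slightly below all DHT samples (-0.09, SE 0.033, adjusted p = 0.0273, counts -0.04, adjusted p = 0.675). ITGAV, at 38.48, 37.97 and 35.04 FPKM, overlapped with DHT alone (0.04, adjusted p = 0.552, counts 0.26, adjusted p = 0.0374). COL4A5 (13.55, 13.75 and 13.2 FPKM) overlapped with DHT alone too (-0.06, adjusted p = 0.246).

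With DHT present, JQ-1 raised ITGB1 to 184.3, 190.7 and 192 FPKM (0.61, counts 0.72) and ITGA3 to 2.998, 3.265 and 3.628 FPKM (1.25, counts 1.21). COL6A2 (0.61, counts 0.56), COL7A1 (0.52, counts 0.38, adjusted p = 0.132), LAMB1 (0.45, counts 0.88), COL6A1 (0.37, counts 0.33) and ITGB1BP1 (0.28, counts 0.42, adjusted p = 0.0686) were higher by FPKM. COL9A2 (-2.62), COL9A3 (-2.27, counts -1.57), COL26A1 (-1.86, counts -1.61), ITGA5 (-0.83, counts -0.83), LAMA3 (-0.76, counts -0.73) and ITGA2 (-0.69) were lower, although ITGA2 had the other sign by counts (0.24, adjusted p = 0.452). In this fit COL9A2, COL9A3 and COL26A1 reached 0.5 FPKM only with DHT alone, so a fall was favoured for each. COL18A1 was called higher by FPKM (0.96) and lower by counts (-0.64). The FPKM fit called 22 of 27 members (8 higher, 14 lower) against 77.2% of genes (34.6% higher, 42.7% lower), and the count fit 15 of 24 (6 higher, 9 lower) against 54.7% (26.7% higher, 28% lower). By FPKM, ITGB1 and ITGA3 were higher and COL9A2, COL26A1 and LAMA3 lower in each of the 3 JQ-1 comparisons, which share no samples with each other. A fall of COL9A2 was favoured by the FPKM limit in each of them.

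Whether the DHT response differed with JQ-1 was tested as an interaction over 12 samples. By FPKM 17 of 32 members passed (13 higher, 4 lower) against 45.4% of genes, and by counts 7 of 28 (12.3% of genes). The 4 with a lower estimate were the DHT-raised members LAMA1, COL12A1, ITGAV and LAMC1. The DHT difference was 2.54 without and -0.20 with JQ-1 for LAMA1 (interaction -2.74, adjusted p = 1.58e-05), and 2.48 and -0.07 for COL12A1 (-2.55, adjusted p = 4.41e-06, counts -2.89, adjusted p = 0.0491). It was 1.65 and 1.20 for LAMC1 (-0.44, SE 0.039, adjusted p = 4.34e-06, counts -0.45, adjusted p = 0.000923) and 1.46 and 0.85 for ITGAV (-0.60, adjusted p = 7.86e-05, counts -0.46, adjusted p = 0.0726). Most of the DHT difference of LAMC1 was still present with JQ-1, while for COL12A1 and LAMA1 the difference was near 0. LAMA1 would not have been a member without its DHT samples, so its estimate is a description. COL12A1 reached 0.5 FPKM in this fit only with DHT alone, so a negative estimate was favoured and is a description too. In the samples without DHT, LAMC1 and ITGAV were themselves higher with JQ-1 than with vehicle. COL4A5 showed no interaction past the threshold (0.61 without and 0.67 with JQ-1, adjusted p = 0.456).

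Among the DHT-lowered members, LAMB1 changed most: its DHT difference was -2.07 without and -0.35 with JQ-1 (interaction 1.72, SE 0.12, adjusted p = 7.97e-07, counts 1.31, adjusted p = 0.00117). The corresponding pairs were -1.30 and -0.03 for ITGB2 (interaction 1.27), -1.38 and -0.21 for COL27A1 (1.18), and -0.90 and -0.11 for ITGB1BP1 (0.79, counts 0.98). Positive interactions were also measured for COL16A1 (0.84), ITGA3 (0.74), COL6A1 (0.61, counts 0.42) and ITGB5 (0.48, counts 0.78), the last of which did not pass for DHT alone (-0.06, adjusted p = 0.204). LAMA3 kept most of its fall, with -1.79 and -1.38 (interaction 0.41, adjusted p = 0.0105). The level without DHT was itself lower with JQ-1 for LAMB1, which was at 0.9499, 0.9054 and 1.022 FPKM with JQ-1 and at 0.7701, 0.7371 and 0.6898 FPKM with DHT and JQ-1. From vehicle to JQ-1 alone, mean FPKM also went from 0.776 to 0.3936 for COL27A1 and from 22.63 to 15.82 for ITGB1BP1. The main listed transcript of ITGB2 went from 1.247 to 0.4271 FPKM, whereas ITGA3 was higher with JQ-1 alone. The part of these levels without DHT in the interactions was not tested. COL27A1 reached 0.5 FPKM in this fit only with vehicle, so a positive estimate was favoured.

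**Figure D5:**
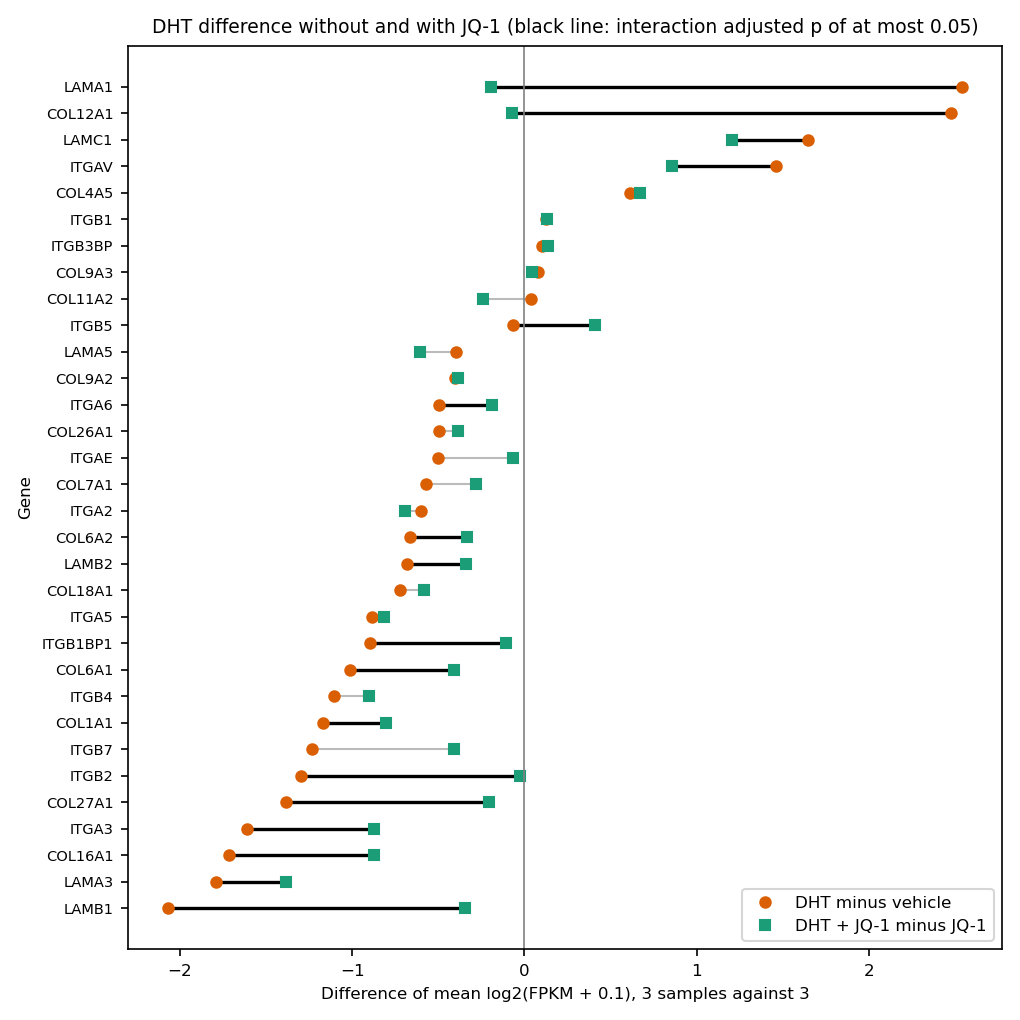
DHT difference in mean log2(FPKM + 0.1) for each of 32 members without JQ-1 (circles, DHT minus vehicle) and with it (squares, DHT with JQ-1 minus JQ-1), 3 samples against 3; a black line marks an interaction with adjusted p of at most 0.05. The squares of LAMA1 and COL12A1 sit near 0, and those of LAMC1, ITGAV and COL4A5 stay right of it.

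For enzalutamide with and without JQ-1, 4 of 30 members passed by FPKM (16.9% of genes): LAMB1 (0.57, adjusted p = 0.00943), LAMA3 (0.43, adjusted p = 0.00358) and COL6A1 (0.24, adjusted p = 0.0281) with positive and LAMC1 with a negative estimate (-0.38, SE 0.055, adjusted p = 0.00092). The count fit by edgeR called 0 of 27 members (0.895% of genes), 5 of them with an unadjusted p under 0.05, and DESeq2 called 0 with 1 such member. With JQ-1, enzalutamide left LAMC1 at 49.07, 48.35 and 47.11 FPKM against 40.92, 40.69 and 42 FPKM.

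The response to enzalutamide in V16D and that to DHT in MR49F come from different samples and can be set side by side. Of the 30 members in both fits, 21 were lower with DHT and 13 higher with enzalutamide in V16D, and 12 were in both sets, 57.14% of the first and 92.31% of the second. Over all genes the corresponding shares were 37.69% and 83.39%. Of the 6 members higher with DHT, 5 were among the 6 lower with enzalutamide in V16D (83.33% of each): COL12A1, COL4A5, ITGAV, LAMA1 and LAMC1. Over all genes these shares were 53.22% and 71.76%, so opposite directions were common among genes in general. In the DHT fit COL12A1 and LAMA1 reached 0.5 FPKM only with DHT, and COL27A1 only with vehicle. Their DHT directions were therefore favoured, and LAMA1 would not have been a member without DHT. COL26A1 was the only member lower in both.

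Other genes of matrix assembly and adhesion were counted as lists. With DHT 4 of 5 tested matrix glycoproteins were lower and none higher (median -0.70 against -0.11 for all genes); of 17 collagen-processing genes 6 were higher and 8 lower, of 21 adhesion-complex genes 5 and 9, of 11 other matrix receptors 2 and 6, and of 7 matrix proteases and inhibitors 2 and 5. Of all genes 27.5% were higher and 43.5% lower in this comparison. FN1, fibronectin, the ligand of the ITGA5 receptor, was at a mean of 61.27 FPKM with vehicle, 16.85 with DHT and 11.78 with JQ-1 (-1.86 and -2.37 from vehicle), and in full serum it was at 6.151 FPKM in V16D and 81.42 FPKM in MR49F (3.71 by counts, adjusted p = 5.4e-13). MATN2, matrilin-2, changed by -4.02 with DHT, and by 2.35 with enzalutamide in V16D. LOX, the collagen-crosslinking lysyl oxidase, rose by 2.34 with DHT and had a negative DHT by JQ-1 interaction (-1.51), as COL12A1 and LAMA1 did. Its mean was 0.1658 FPKM with vehicle, 1.234 with DHT and 0.2282 with DHT and JQ-1. As for COL12A1 and LAMA1, the limit of 0.5 FPKM in these fits favoured these directions. The receptor proteoglycan SDC4 changed by -2.13 with DHT and by 1.04 with enzalutamide in MR49F in full serum.

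With JQ-1 alone, 10 adhesion-complex genes were higher and 7 lower of 21 tested (median 0.07 against -0.08 for all genes), and 7 collagen-processing genes higher and 8 lower of 17, where 73.9% of all genes were called. FERMT1, kindlin-1, which activates integrin beta subunits, changed by -2.56, and the crosslinking enzyme LOXL1 by -2.37, whereas the protease inhibitor TIMP3 rose by 2.24 (adjusted p of the 3, at most 1.83e-06). In this comparison FERMT1 and LOXL1 had means above 0.5 FPKM only with vehicle, and TIMP3 only with JQ-1. The limit of the fit therefore favoured these directions. In MR49F against V16D, the collagen-processing list had 10 higher and 7 lower of 21, where 63.7% of all genes were called. The collagen chaperone gene SERPINH1 (-3.11) and the procollagen protease gene ADAMTS2 (-2.92) were lower, but both lay below 0.5 FPKM in both lines. SERPINH1 was at means of 0.3542 FPKM in V16D and 0.03921 FPKM in MR49F, and ADAMTS2 at 0.2766 and 0.04709 FPKM. Enzalutamide in V16D gave 3 higher and 6 lower of 22 collagen-processing genes (37.5% of all genes called), and in MR49F in full serum 1 higher and 0 lower of 19 (8.48%).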

How the data were processed

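The 30 samples were strand-specific poly(A) RNA-seq libraries (Agilent SureSelect, single-end reads). The authors aligned reads to hg19 with TopHat 2.0.9 and deposited HTSeq read counts per gene and Cufflinks 2.1.1 FPKM values per transcript; the HTSeq strand setting was not given in the sources used here. FPKM values were summed per symbol. Groups came from the sample labels. The members and the gene lists were chosen with earlier results of these data known.

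Counts were tested with edgeR 4.0.16 (quasi-likelihood, TMM scaling, filterByExpr) and FPKM with limma 3.58.1 (eBayes with trend) on log2(FPKM + 0.1), over genes that reached 0.5 FPKM in 3 or more fitted samples, in R 4.3.3. p-values were adjusted by Benjamini-Hochberg over all genes, with a threshold of 0.05. In full serum the count fit is the main one, and in stripped serum both are given. Interactions were fitted over 12 samples. Both fits were tested on simulated data. Each member is named with its level, and in each comparison up to 8 called members in each direction with the largest change and a group mean of at least 0.5 FPKM, beside ITGB1, ITGAV, ITGA6, LAMB1, LAMC1 and COL4A5. Alternatives were DESeq2 1.42.0, other scaling, filters and pseudocounts, a replicate block and leaving out each replicate. Same-numbered replicates did not deviate together in every pair of any comparison, so numbers were not treated as pairs.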

Additional observations from a re-analysis of the deposited data

Results flagged for a closer look

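Each result here is a response that differed between groups by the test of the difference itself, on the log2 scale.

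The enzalutamide response differed between MR49F and V16D in full serum (edgeR on counts) for COL12A1 (-1.25), COL5A2 (-1.11), COL4A6 (1.57), COL4A5 (0.76) and LAMC1 (0.54), where a positive value is a less negative or more positive change in MR49F. COL4A6 was a member only through its V16D vehicle samples, and the COL12A1 estimate was 0.24 on log2(FPKM + 1).

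The DHT response differed with and without JQ-1 (limma on FPKM) for 17 members. Negative estimates belonged to LAMA1 (-2.74), COL12A1 (-2.55), ITGAV (-0.60) and LAMC1 (-0.44). LAMA1 would not have been a member without its DHT samples. COL12A1 reached the 0.5 FPKM needed for this fit only with DHT alone, and COL27A1 only with vehicle, so their directions were favoured. Positive estimates in the collagens were 1.18 for COL27A1, 0.84 for COL16A1, 0.61 for COL6A1, 0.37 for COL1A1 and 0.33 for COL6A2. In the laminins they were 1.72 for LAMB1, 0.41 for LAMA3 and 0.35 for LAMB2. In the integrins and their partner they were 1.27 for ITGB2, 0.79 for ITGB1BP1, 0.74 for ITGA3, 0.48 for ITGB5 and 0.30 for ITGA6.

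The enzalutamide response in stripped serum differed with and without JQ-1 (limma on FPKM) for LAMB1 (0.57), LAMA3 (0.43), COL6A1 (0.24) and LAMC1 (-0.38), and none of these passed by counts.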

How the results depend on the processing

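By edgeR on counts COL18A1 reversed against its FPKM result, at 0.25 with enzalutamide, -0.095 with JQ-1, -0.47 with JQ-1 added to enzalutamide and -0.64 with JQ-1 added to DHT, as did ITGA2 with JQ-1 added to DHT (0.24). The line by enzalutamide estimate of COL12A1 became 0.24 with log2(FPKM + 1). The cause was not tested. Calls in MR49F with enzalutamide in full serum numbered 3 by limma with either pseudocount in place of 7, in stripped serum with enzalutamide 2 by DESeq2 in place of 4, for the line by enzalutamide interaction 8 with no count filter in place of 5, and for the DHT by JQ-1 interaction 3 by DESeq2 in place of 7. At a limit of 1 FPKM 27 members would pass instead of 38. Leaving out 1 replicate gave 4 to 12 calls for enzalutamide in MR49F in full serum, 21 to 23 in V16D, 23 to 28 for the lines and 5 to 7 for their interaction. In stripped serum it gave 2 to 4 calls by counts and 11 to 14 by FPKM for enzalutamide, 15 to 19 and 23 to 25 for DHT, 11 to 15 and 20 to 25 for JQ-1, 9 to 11 and 15 to 20 for JQ-1 added to enzalutamide, and 13 to 17 and 15 to 21 for JQ-1 added to DHT. No named member reversed when a replicate was left out.

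With the replicate number as a block, calls were 22 in V16D and 7 in MR49F with enzalutamide, 26 for the lines, 6 by counts in place of 4 for enzalutamide in stripped serum, 18 for DHT and 14 for JQ-1. The numbers do not pair the samples. Low reads on genes limit the stripped-serum counts of COL12A1, LAMA1 and COL9A2.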
